A study of Saccharomyces cerevisiae with 72 samples.

Results

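This comparison asked how budding yeast without the checkpoint kinase Chk1 respond to the alkylating agent methyl methanesulfonate (MMS), relative to wild type. It used 8 of the 72 two-colour microarrays of the series, 4 of strain chk1 and 4 of strain wt, taken by the strain names in the array titles from a table of 52 arrays and 13 strains. Each array compared a treated culture with an untreated culture of the same strain, and the value of a gene is its log2 ratio of MMS over untreated. Each strain had 2 replicates, and each replicate had 2 arrays with the dyes Cy5 and Cy3 exchanged, whose values were averaged after being turned the same way.

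The chk1 strain carried chk1Δ and the wt strain no labelled deletion, both in the haploid laboratory background BY4741. Cultures were grown at 30 °C and divided into 50 ml portions, which were kept for 1 h with or without MMS. The dose is labelled 0.03% in the growth description and 0.033% in the treatment description. RNA was enriched for poly(A) transcripts before labelling. Further strains of the same background and treatment were used as settings for CHK1 loss. The tests used chk1Δ dun1Δ (chk1dun1) set against dun1Δ (dun1), chk1Δ rad53Δ (chk1rad53) set against rad53Δ (rad53), and the single deletions sml1Δ, tel1Δ and ste11Δ, which keep CHK1. Levels of HUG1 and RNR3 were also read in mec1Δ, crt1Δ, dun1Δ rad53Δ (dun1rad53) and tel1Δ mec1Δ (tel1mec1). The labels do not say whether the 2 replicates of a strain came from separate cultures. The p-values measure the spread between replicates, estimated over the 13 strains together and not over chk1 and wt alone. That spread may be technical.

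DNA damage in budding yeast activates the sensor kinases Mec1 and Tel1, which pass the signal to the effector kinases Rad53 and Chk1. Rad53 activates Dun1, which relieves repression by Crt1 (encoded by RFX1) of the ribonucleotide reductase genes, so that more deoxynucleotides can be made. Chk1 phosphorylates the securin Pds1 and thereby holds cells before anaphase, and it is best known for that arrest rather than for control of transcription.

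One replicate stood apart. The opposite-dye arrays of wt replicate 1 correlated over genes at only 0.22 after being turned the same way, against 0.81 for wt replicate 2, and 0.86 and 0.89 for the chk1 replicates. The deviation of each opposite-dye array from the mean of its pair had an SD over genes of 0.395 in wt replicate 1, against 0.174 in wt replicate 2, and 0.131 and 0.127 in the chk1 replicates. All 4 chk1 arrays lay on 1 slide and the wt arrays on 3 others, so slide and strain cannot be told apart in this comparison. Values without wt replicate 1 are given beside results that it moved. Of the other strains, dun1 had an array on which the ratio of DUN1 itself stood apart. DUN1 read 2.71 on the Cy5 array (MMS in Cy5) of dun1 replicate 2, while the remaining 3 dun1 arrays lay between -0.24 and -0.11. A ratio does not show the level of a gene in a strain. HUG1 read 1.11 and RNR3 0.72 on that array, each the lowest of the 4 dun1 arrays. The main results from dun1 are also given without that array.

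The deleted gene was examined first. CHK1 (YBR274W) had log2 ratios of -0.54 and -0.26 in the chk1 replicates, against 0.50 and 0.13 in the wt replicates. The difference was -0.72 (SE 0.13, 95% interval -0.99 to -0.44) and missed the threshold of adjusted p below 0.05 in limma's moderated test with Benjamini-Hochberg adjustment over 5594 genes (adjusted p = 0.0655). The chk1 values went with the dye. With MMS in Cy5 the chk1 arrays read 0.27 and 0.18, and with MMS in Cy3 they read -1.34 and -0.70. The wt arrays, with MMS in Cy5 first, read -0.07 and 1.08 in replicate 1 and 0.13 and 0.14 in replicate 2. The difference between the strains was -0.53 without wt replicate 1 and -0.90 without wt replicate 2. A ratio of treated over untreated does not show the level of a gene in a strain, so it does not check the deletion.

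The transcriptional response of chk1 cells to MMS was broad: 2764 of 5594 genes changed in chk1 cells (49.4%), of which 1464 were higher (26.2%) and 1300 lower (23.2%) after MMS. In wt cells 2917 changed (52.1%), 1498 higher (26.8%) and 1419 lower (25.4%). Calls made in both strains numbered 2297, which is 83.1% of the chk1 calls and 78.7% of the wt calls, and 2296 of them had the same sign. At 2-fold or more, 273 genes were called in each strain, 192 higher and 81 lower in chk1, and 175 higher and 98 lower in wt.

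All 273 genes that changed at least 2-fold in wt cells had the same sign in chk1 cells, where 272 of them were called and 218 were also at least 2-fold. The slope of the chk1 response on the wt mean over these genes, through the origin, was 0.971 ± 0.0469 (SD, n = 2; 0.938 and 1.00). It was 0.977 over the 175 genes higher in wt and 0.958 over the 98 genes lower in wt. The wt replicates regressed on each other gave 0.934 and 1.02, and the slope of chk1 on wt lay between these values. The wt slopes were taken on 1 replicate and the chk1 slope on the mean of 2, so they are not measured alike. With arrays scaled to one spread, or with MMS in 1 dye only, the chk1 slope left that range, as given in the closing section. These genes were chosen for their size in wt, and both strains' responses were measured in bulk cultures, where fewer cells of a kind and less RNA per cell cannot be told apart.

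**Figure D1:**
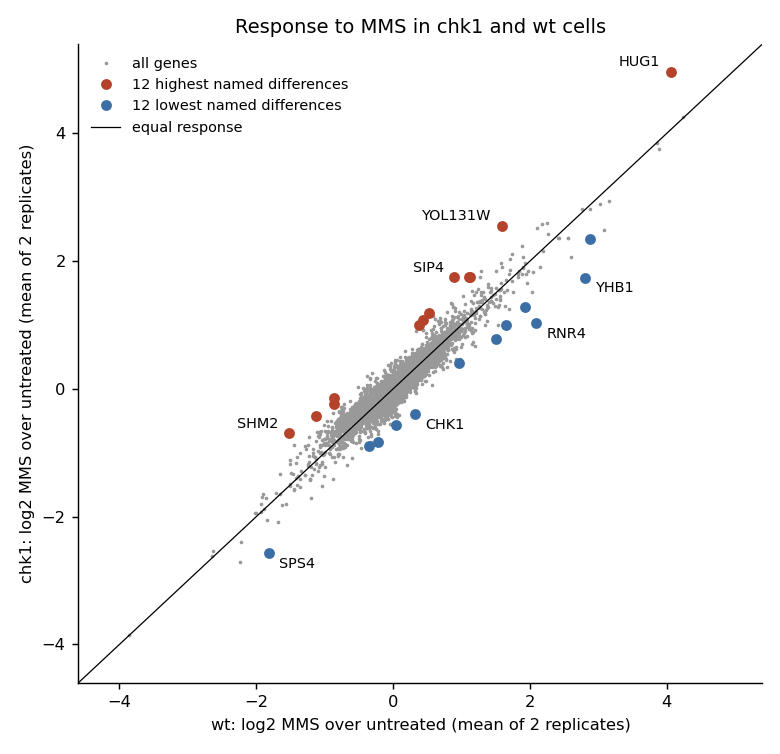
Mean log2 ratio of MMS over untreated in chk1 (vertical axis) against wt (horizontal axis) for 5594 genes, each point the mean of 2 replicates; red and blue points are the 12 highest and 12 lowest named differences and the line marks equal responses. The points follow the line (r = 0.951 over genes), with HUG1 above it at 4.96 in chk1 and 4.07 in wt, and RNR4 and YHB1 below it.

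Among the genes that chk1 cells induced most, HUG1, RNR3 and the cyanamide hydratase genes DDI2 and DDI3 stood first. DDI2 had 3.91 and 3.78 in the chk1 replicates, against 3.77 and 3.96 in the wt replicates. DDI3 had 3.92 and 3.59 in chk1, against 3.81 and 3.96 in wt. SSU1, a sulfite pump, had 2.69 and 3.19 in chk1, against 3.21 and 3.10 in wt. The replicates of the strains overlapped for each of these 3 genes. The glutathione transferase gene GTT2, the arginine synthesis gene ARG1 and HSP31, a methylglyoxalase and chaperone, completed the 8 highest, with differences of -0.13, -0.05 and 0.05.

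CYC1, encoding cytochrome c, fell most in chk1 cells, with -3.75 and -3.94, against -4.42 and -3.31 in wt. SFG1, a regulator of superficial growth, had -2.70 and -2.71 in chk1, against -1.90 and -2.57 in wt. The mitochondrial NADH dehydrogenase gene NDE1 had -2.47 and -2.75 in chk1, against -2.76 and -2.53 in wt. Of these, CYC1 and NDE1 overlapped between the strains and SFG1 was lower in both chk1 replicates, without passing the test of the difference (-0.47, adjusted p = 0.994 in limma). SPS4, CYB5, PHO5, YGR035C and HOF1 were the other genes among the 8 lowest, and their differences were -0.75, 0.10, -0.16, -0.41 and -0.20.

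Set against wt directly, the chk1 response differed for 1 gene, HUG1 (0.0179% of 5594, limma, adjusted p below 0.05). At an unadjusted p below 0.05 there were 247 genes (4.42%), 147 higher and 100 lower in chk1. The chk1 replicates lay both above or both below the wt replicates for 1628 genes (29.1%), 885 higher (15.8%) and 743 lower (13.3%). The difference over all genes had a median of 0.01 and an SD of 0.154, and 95% of genes lay between -0.28 and 0.32.

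The intervals bound how large a difference the data allow. The 95% interval of the difference lay within 2-fold either way for 5533 of 5594 genes (98.9%) and within 1.5-fold for 4990 (89.2%). At the median over genes the interval reached 0.279 on the log2 scale to each side of the difference. These intervals are not adjusted for the 5594 genes tested. A typical gene therefore needed a larger difference than this to pass the adjusted threshold.

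HUG1 (YML058W-A), a small protein that inhibits ribonucleotide reductase, was induced more in chk1 cells. Its log2 ratios were 4.84 and 4.87 on the arrays of chk1 replicate 1 and 5.23 and 4.91 on those of replicate 2, against 4.47 and 3.82 in wt replicate 1 and 4.49 and 3.48 in wt replicate 2, each with MMS in Cy5 first. All 4 chk1 arrays read above all 4 wt arrays. The means were 4.96 ± 0.15 in chk1 and 4.07 ± 0.11 in wt (SD, n = 2 each). The difference of 0.90 (SE 0.14, 95% interval 0.61 to 1.18), or 1.86-fold, passed the test in limma (adjusted p = 0.0128).

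The call depended on the settings. It passed in 5 of 15 alternative settings, with differences between 0.55 and 1.86 and adjusted p between 0.00626 and 0.994. Within one dye orientation the difference was 0.55 with MMS in Cy5 (adjusted p = 0.871) and 1.24 with MMS in Cy3 (adjusted p = 0.517). Leaving out any 1 of the 4 replicates kept the difference between 0.79 and 1.01 and ended the call, with adjusted p = 0.0761 without wt replicate 1 and 0.123 without wt replicate 2. An exact two-sided permutation of 2 against 2 replicates for HUG1 alone gave p = 0.333, the smallest it can give.

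No ribonucleotide reductase subunit passed the test between the strains. RNR3 (YIL066C), the damage-induced large subunit, had 4.21 and 4.32 in chk1 cells, against 4.29 and 4.19 in wt cells, a difference of 0.02 (95% interval -0.28 to 0.33). RNR1 (YER070W), the main large subunit, had 1.33 and 1.28 in chk1, against 1.52 and 1.76 in wt, a difference of -0.34. The strains overlapped for RNR3, and for RNR1 both chk1 replicates were lower without passing the test (adjusted p = 0.994 in limma).

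The small subunits gave lower log2 ratios in chk1 cells than in wt cells, also without passing. RNR4 (YGR180C) had 1.63 and 0.36 on the arrays of chk1 replicate 1 and 1.28 and 0.83 on those of replicate 2, against 2.18 and 2.29, and 2.05 and 1.82, on the wt arrays, each with MMS in Cy5 first. All 4 chk1 arrays read below all 4 wt arrays, by a mean of -1.06 (95% interval -1.94 to -0.17, unadjusted p = 0.0215, adjusted p = 0.994 in limma). RNR4 varied widely in strains that keep CHK1: its replicates were 0.90 and 2.19 in sml1, and 0.68 and 2.76 in ste11. In tel1, which also keeps CHK1, they were 1.10 and 0.74. RNR2 (YJL026W) had 0.94 and 1.04 in chk1, against 1.94 and 1.36 in wt, a difference of -0.66 (95% interval -1.24 to -0.08, unadjusted p = 0.0284, adjusted p = 0.994 in limma) that was -0.37 without wt replicate 1 and -0.95 without wt replicate 2.

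RFX1 (YLR176C), which encodes the repressor Crt1 and is itself under its control, had 0.81 and 0.53 in chk1, against 0.86 and 0.47 in wt. Together with HUG1, RNR2, RNR3 and RNR4 it makes up the 5 Crt1-repressed genes listed, all of which rose after MMS in both strains. Between the strains 1 of the 5 was called higher, beside 0.0179% of all genes, and none lower. RNR2 and RNR4 were the 2 that were lower at an unadjusted p below 0.05, beside 1.79% of all genes. The 5 differences ran from -1.06 for RNR4 to 0.90 for HUG1. Their median of 0.01, beside 0.01 over all genes, therefore does not describe each of them. Among 6 other genes of the enzyme and its control, RNR1 and SML1 included, none reached an unadjusted p below 0.05, beside 4.42% of all genes. SML1, which encodes another inhibitor, differed by 0.07.

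**Figure D2:**
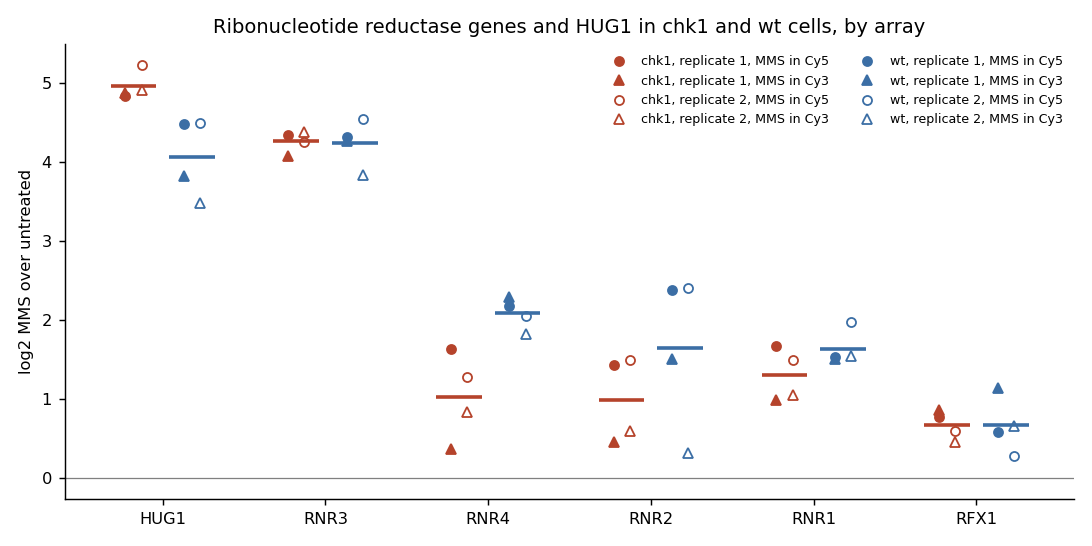
Log2 ratio of MMS over untreated on each array for HUG1, the ribonucleotide reductase genes and RFX1, with chk1 in red left of wt in blue, replicate 1 filled, replicate 2 open, and the marker shape giving the dye of the MMS sample. All 4 chk1 arrays lie above the wt arrays for HUG1 and below them for RNR4, while RNR3 overlaps (4.21 and 4.32 in chk1, 4.29 and 4.19 in wt by replicate).

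HUG1 was also compared with strains that keep CHK1 other than wt. Its mean was 4.96 ± 0.15 in chk1, 4.84 ± 0.08 in sml1, 4.30 ± 0.08 in tel1, 4.07 ± 0.11 in wt and 4.04 ± 0.16 in ste11 (SD, n = 2 each). The chk1 and sml1 replicates overlapped in range, with 4.85 and 5.07 in chk1 and 4.90 and 4.79 in sml1, and so did those of wt and ste11. Against the mean of sml1, tel1 and ste11 the chk1 value was 0.57 higher (SE 0.11, 95% interval 0.34 to 0.80), which did not pass the test (adjusted p = 0.204 in limma). No gene passed in that comparison, and 150 of 5594 had an unadjusted p below 0.05 (2.68%).

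The other strains formed a lower group for HUG1. The means were 1.49 in dun1, 1.39 in mec1, 0.92 in chk1dun1 and -0.03 in crt1, and those of dun1rad53, chk1rad53, rad53 and tel1mec1 lay between -0.58 and -0.44. The replicate ranges of chk1rad53 and rad53 overlapped each other and those of dun1rad53 and tel1mec1, while dun1rad53 and tel1mec1 did not overlap. Over the 13 strain means, the genes whose responses followed HUG1 most closely were RNR3 (r = 0.994), the transporter gene SMF3 (0.960), YPR015C (0.959), the nucleotide excision repair gene RAD16 (0.955) and the nicotinamide riboside transporter gene NRT1 (0.954). These correlations are a description over 13 strains, many of which share a deletion.

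**Figure D3:**
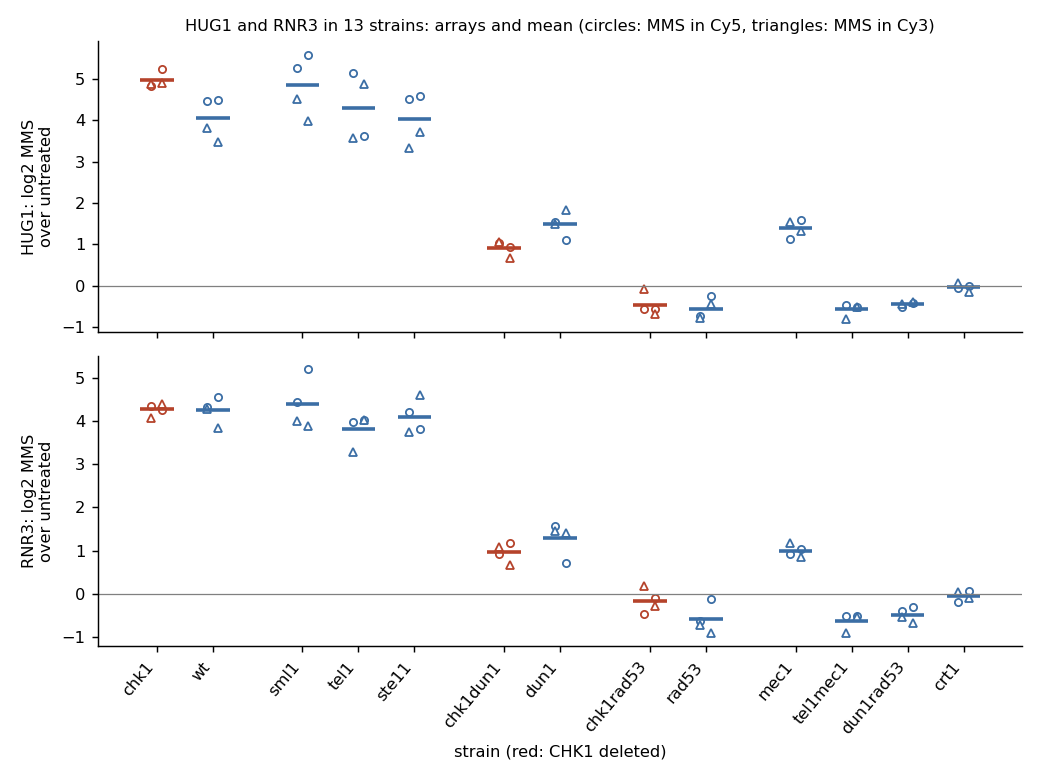
Log2 ratio of MMS over untreated for HUG1 (top) and RNR3 (bottom) in 13 strains, each array a point (circles with MMS in Cy5, triangles with MMS in Cy3) with the mean of the strain, and strains without CHK1 in red. HUG1 averages 4.96 in chk1, 0.92 in chk1dun1 and -0.47 in chk1rad53, next to 4.07 in wt, 1.49 in dun1 and -0.56 in rad53.

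No gene of the pathway that Chk1 belongs to passed the test. RAD53 had 0.47 and 0.67 in chk1, against 0.50 and 0.67 in wt, and DUN1 had 1.53 and 1.56 in chk1, against 1.64 and 1.46 in wt. MEC1 and TEL1 differed by 0.09 and -0.07, and the adaptor gene RAD9 by 0.19. Of 20 checkpoint pathway genes only CHK1 itself had an unadjusted p below 0.05, beside 4.42% of all genes. Intervals within 1.5-fold were found for 19, beside 89.2% of all genes.

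The genes on which the arrest by Chk1 acts did not pass the test either. PDS1, the securin, had 0.20 and 0.33 in chk1, against 0.26 and 0.40 in wt (difference -0.06, 95% interval -0.36 to 0.23). ESP1, the separase that securin holds inactive, differed by -0.07, and the cohesin genes SMC3 and MCD1 by 0.20 and 0.15. None of 38 genes of sister separation and mitotic exit had an unadjusted p below 0.05, beside 4.42% of all genes. The intervals of all 38 lay within 1.5-fold, beside 89.2% of all genes. The list had a median difference of 0.03, with 11 higher and 10 lower calls in the chk1 response and 13 and 11 in the wt response. Over all genes, 26.2% were higher and 23.2% lower in chk1, and 26.8% and 25.4% in wt.

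DNA repair genes differed by less than 1.5-fold between the strains. RAD54, of homologous recombination, had 0.91 and 0.99 in chk1, against 0.97 and 1.03 in wt, and MAG1, the glycosylase that removes alkylated bases, had 0.95 and 1.12 in chk1, against 1.09 and 1.32 in wt. Of 36 repair genes 19 rose in chk1 and 18 in wt, beside 26.2% and 26.8% of all genes. The 95% intervals of all 36 differences lay within 1.5-fold, beside 89.2% of all genes. Only RAD57 had an unadjusted p below 0.05, with a difference of -0.24, beside 4.42% of all genes.

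No gene of the MBF, SBF, CLB2 cluster or M/G1 lists, expressed in turn over the cell cycle, reached an unadjusted p below 0.05, beside 4.42% of all genes. The 27 genes of the G1/S factor MBF had a median difference of 0.00, the 15 genes of SBF 0.02, the 17 genes of the CLB2 cluster -0.06 and the 16 genes of M/G1 0.02. The CLB2 cluster median turned to 0.09 without wt replicate 1 and to 0.07 with MMS in Cy5, and was -0.19 without wt replicate 2, -0.20 with MMS in Cy3 and -0.28 with arrays scaled to one spread. The M/G1 median turned to -0.04 without wt replicate 1 and to -0.29 with that scaling, and the MBF median was -0.07 without wt replicate 1. CLB2, the main mitotic cyclin gene, had -1.04 and -1.02 in chk1, against -0.66 and -1.38 in wt. In the CLB2 cluster 16 of 17 genes fell in each strain, beside 23.2% of all genes in chk1 and 25.4% in wt. The 10 histone genes had a median of 0.14 that depended on the dye, at 0.54 with MMS in Cy5 and -0.28 with MMS in Cy3, and was 0.28 without wt replicate 1 and -0.02 without wt replicate 2. HTB2 differed by 0.57 and HHT2 by -0.36, with unadjusted p = 0.0119 and 0.00511.

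Beyond HUG1, no gene passed the adjusted threshold, and 238 genes had both an unadjusted p below 0.05 and replicates that did not overlap. Of these, 140 were higher (2.5% of genes) and 98 lower (1.75%) in chk1, and 2 were at least 2-fold apart, YHB1 and RNR4. The 12 highest and 12 lowest are described here as a ranking that did not pass, with adjusted p between 0.986 and 0.994 for all but HUG1 and CHK1.

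Among the genes with higher ratios in chk1, SIP4 (YJL089W), an activator of gluconeogenic genes, had the lowest p after HUG1 and CHK1. It had 1.74 and 1.76 in chk1, against 0.94 and 0.85 in wt, a difference of 0.85. YOL131W, of unknown function, had 2.43 and 2.67 in chk1, against 1.01 and 2.17 in wt, and its difference of 0.97 was 0.39 without wt replicate 1 and 1.54 without wt replicate 2. YOR338W and YLR108C, also uncharacterised, differed by 0.67 and 0.64.

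Of the higher genes, 4 fell after MMS in wt cells. SHM2, the cytosolic serine hydroxymethyltransferase, had -0.78 and -0.61 in chk1, against -1.69 and -1.36 in wt. OLE1, the fatty acid desaturase, had -0.54 and -0.32 in chk1, against -1.04 and -1.20 in wt. DAN1, a cell wall mannoprotein of anaerobic cells, had -0.28 and 0.01 in chk1, against -0.55 and -1.17 in wt. The chk1 replicates of these 3 genes lay nearer to 0 than the wt replicates, and DAN1's difference of 0.72 was 1.03 without wt replicate 1 and 0.41 without wt replicate 2. SRO9, an RNA-binding protein gene, had 0.12 and -0.58 in chk1, against -0.84 and -0.88 in wt, and its difference of 0.63 was 0.28 without chk1 replicate 1 and 0.97 without chk1 replicate 2.

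HSP82, one of a pair of Hsp90 genes, had 1.14 and 1.01 in chk1, against 0.71 and 0.17 in wt, a difference of 0.63 that was 0.90 without wt replicate 1 and 0.36 without wt replicate 2, while its near-identical partner HSC82 differed by 0.11. Probes for such close copies may share signal. The siderophore transporter gene SIT1 had 1.75 and 1.77 in chk1, against 1.05 and 1.20 in wt, and the ferric reductase gene FRE1 had 1.03 and 0.98 in chk1, against 0.23 and 0.53 in wt. Both iron uptake genes rose in chk1 cells, and in wt cells SIT1 rose and FRE1 did not pass the test.

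Among the genes with lower ratios in chk1, YHB1 (YGR234W), a flavohemoglobin that detoxifies nitric oxide, differed most. It had 1.79 and 1.69 in chk1, against 2.78 and 2.84 in wt, a difference of -1.07. The chk1 arrays split by dye, at 2.83 and 2.52 with MMS in Cy5 and 0.74 and 0.86 with MMS in Cy3, and the difference was -0.37 in the first orientation and -1.77 in the second. PNC1, the nicotinamidase, had 0.67 and 0.91 in chk1, against 1.48 and 1.52 in wt. UBI4, the stress-induced polyubiquitin gene, had 1.15 and 1.40 in chk1, against 2.04 and 1.83 in wt. Both remained induced in chk1 cells.

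SPS4, a gene of sporulation, had -2.64 and -2.50 in chk1, against -1.54 and -2.10 in wt, and its difference of -0.75 was -0.48 without wt replicate 1 and -1.03 without wt replicate 2. GEP5, needed to maintain the mitochondrial genome, had -0.85 and -0.81 in chk1, against 0.10 and -0.53 in wt, and its difference of -0.61 was -0.30 without wt replicate 1 and -0.93 without wt replicate 2. BUD25, a bud site selection gene, differed by -0.60, and PRM6, a pheromone-regulated membrane protein gene, by -0.55. The chk1 arrays split by dye for BUD25, whose difference was -0.04 with MMS in Cy5 and -1.16 with MMS in Cy3. OSI1, induced by oxidative stress, had 2.40 and 2.28 in chk1, against 2.98 and 2.79 in wt. SSA1, an Hsp70 gene, had 0.36 and 0.47 in chk1, against 1.43 and 0.49 in wt. Its difference of -0.55 was -0.08 without wt replicate 1 and -1.01 without wt replicate 2, and the close copy SSA2 differed by 0.03.

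Set against the mean of sml1, tel1 and ste11, which shares the chk1 arrays with the comparison to wt, 22 of the 24 named genes kept their sign and 13 were less than 0.5 times as large. FRE1 stood at 0.56, YOR338W at 0.52 and PRM6 at -0.59, close to their differences from wt of 0.62, 0.67 and -0.55. PNC1, UBI4, OSI1 and DAN1 stood at -0.05, -0.11, 0.08 and -0.01, against differences from wt of -0.71, -0.66, -0.54 and 0.72. None passed the test in that comparison, where the lowest adjusted p was 0.204 in limma.

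**Figure D4:**
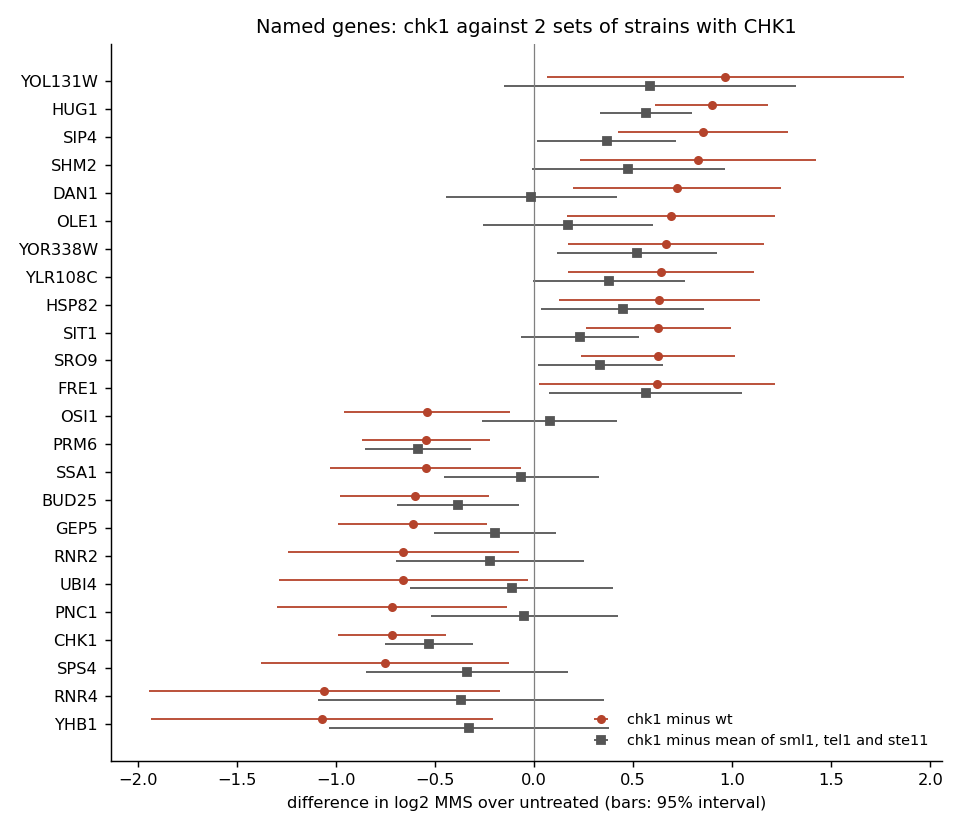
Difference in log2 ratio of MMS over untreated for the 24 named genes, with 95% intervals, between chk1 and wt and between chk1 and the mean of sml1, tel1 and ste11. HUG1 lies at 0.90 and 0.57, YHB1 at -1.07 and -0.33, and 13 of the 24 are less than 0.5 times as far from 0 in the second comparison.

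Ribosome biogenesis genes, which yeast turns down under stress, had higher ratios in chk1 almost throughout, though none passed the test. Of 57 measured, 56 differences lay above 0, beside 2990 of 5594 over all genes, and the median was 0.22, beside 0.01 over all genes. The replicates did not overlap for 27 of them, all higher in chk1, beside 15.8% of all genes. Medians of the list were -0.32 and -0.52 in the chk1 replicates, against -0.57 and -0.78 in the wt replicates, and 45 genes fell in chk1 and 54 in wt, beside 23.2% and 25.4% of all genes. The 7 with an unadjusted p below 0.05, all higher in chk1 beside 2.63% of all genes, were PWP2, ERB1, UTP8, NOP1, RLP7, NOC3 and UTP15.

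PWP2, of the small subunit processome, had -0.14 and -0.43 in chk1, against -0.63 and -0.91 in wt, a difference of 0.48 (unadjusted p = 0.00209, adjusted p = 0.994 in limma). The lower chk1 replicate median lay near the higher wt replicate median. Over the list, the median difference was 0.29 without wt replicate 1, 0.13 without wt replicate 2, 0.27 with MMS in Cy5, 0.18 with MMS in Cy3, and 0.09 when arrays were scaled to one spread. It was 0.11 against sml1, tel1 and ste11. Of the 135 ribosomal protein genes 61 fell in chk1 and 62 in wt, beside 23.2% and 25.4% of all genes. Their median difference was 0.00, which was 0.09 without wt replicate 1 and -0.09 without wt replicate 2.

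Iron regulon genes, which the factor Aft1 induces for iron uptake, gave 8 of 21 at an unadjusted p below 0.05, all higher in chk1, beside 2.63% of all genes. Besides SIT1 and FRE1 these were the cell wall mannoprotein genes FIT2 and FIT3, the permease gene FTR1, the copper transporter gene CCC2, the mRNA decay factor gene TIS11 and FRE6, with differences between 0.37 and 0.56. FIT2 had 1.81 and 1.89 in chk1, against 1.26 and 1.31 in wt. TIS11 had 1.49 and 1.58 in chk1, against 1.28 and 1.04 in wt. None passed after adjustment, the replicates did not overlap for 11, all higher in chk1 (15.8% of all genes), and the list's median was 0.16. It was 0.11 without wt replicate 1 and 0.14 against sml1, tel1 and ste11, and 15 genes rose in chk1 and 11 in wt, beside 26.2% and 26.8% of all genes.

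Stress genes were induced in both strains. All 26 general stress genes and all 33 proteasome genes rose in both strains, beside 26.2% of all genes in chk1 and 26.8% in wt, with median differences of -0.10 and 0.00. Of 21 Yap1 genes of oxidative stress, 19 rose in chk1 and 21 in wt, with a median difference of -0.11 that was -0.23 without wt replicate 1 and turned to 0.01 without wt replicate 2, to 0.11 with MMS in Cy3 and to 0.15 when arrays were scaled to one spread. That scaling also turned the general stress median, to 0.26, and moved the proteasome median to 0.21. Among the Yap1 genes GRE2 and ECM4 differed by 0.40 and 0.35, and OSI1 by -0.54.

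The remaining metabolic lists had medians within 0.12 of 0. Ergosterol synthesis had 21 of 25 differences above 0, beside 2990 of 5594 over all genes. Its median of 0.10 was -0.03 both without wt replicate 1 and with arrays scaled to one spread. ERG6, ERG24 and IDI1 had an unadjusted p below 0.05, all higher in chk1, beside 2.63% of all genes. Respiration had 31 of 36 differences below 0, beside 2604 of 5594 over all genes, and a median of -0.08. COX12 alone had an unadjusted p below 0.05, lower in chk1, beside 1.79% of all genes. Heat shock genes had a median of 0.02, amino acid genes under Gcn4 0.06, sulfur amino acid genes 0.12 and phosphate regulon genes 0.03. The sulfur median was -0.01 without wt replicate 1 and -0.03 with MMS in Cy3, and the phosphate median -0.03 and -0.11 under the same settings. With MMS in Cy3 the heat shock median turned to -0.11 and the Gcn4 median to -0.07.

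**Figure D5:**
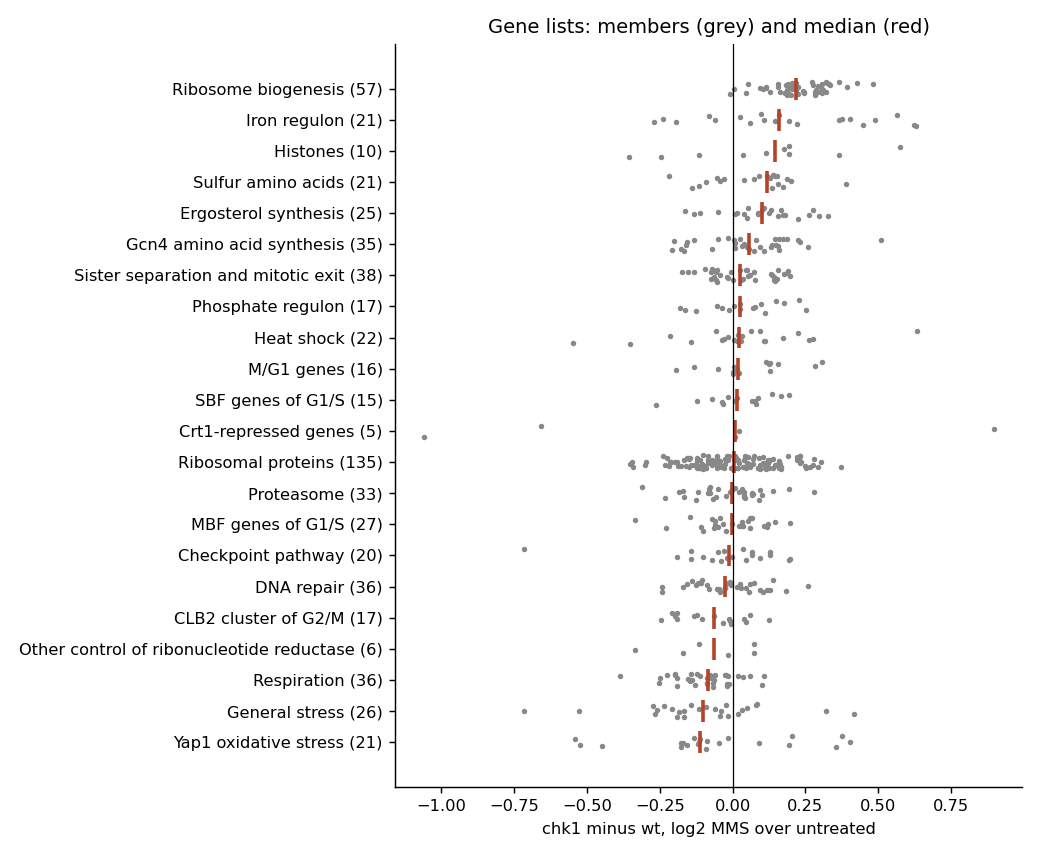
Difference between chk1 and wt in log2 ratio of MMS over untreated for the members (grey) and the median (red) of 22 gene lists, with the number measured beside each name. The medians of ribosome biogenesis (0.22) and the iron regulon (0.16) lie highest, and those of general stress (-0.10) and Yap1 genes (-0.11) lowest.

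CHK1 was also deleted in strains that lacked DUN1 or RAD53, on arrays not shared with the chk1 and wt comparison. No slide held both chk1dun1 and dun1, or both chk1rad53 and rad53, so slide and strain cannot be told apart there either. No gene passed in chk1dun1 against dun1 or in chk1rad53 against rad53, where 181 (3.24%) and 322 (5.76%) genes had an unadjusted p below 0.05 in limma. Over all genes, the difference between chk1 and wt correlated at -0.03 with the difference between chk1dun1 and dun1 and at -0.02 with that between chk1rad53 and rad53. Of the 238 genes ranked above, 105 (44.1%) had the same sign in each of these backgrounds, and of the 24 named genes 6 and 11 did. Without the dun1 array with the high DUN1 ratio, 1 of mec1 and 1 of chk1rad53, these counts were 109 and 95, and 6 and 7. The last 2 arrays were those of replicate 1 with MMS in Cy5 (mec1) and with MMS in Cy3 (chk1rad53). No conflict with the label is shown here for either of them. In chk1rad53 against rad53, 2 genes were then called, DDI2 at 1.56 and DDI3 at 1.48 (adjusted p = 0.00109 and 0.00286 in limma). With those arrays they stood at 0.83 and 0.73 and were not called, so both calls rest on leaving out the chk1rad53 array. They are named after their values were seen, and are near-identical copies whose probes may share signal.

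HUG1 went the other way without DUN1. It had 1.04 and 0.80 in chk1dun1, against 1.52 and 1.47 in dun1, a difference of -0.57 (SE 0.14, 95% interval -0.86 to -0.29) that did not pass (adjusted p = 0.651 in limma). Without the dun1 array with the high DUN1 ratio it was -0.75 (adjusted p = 0.117 in limma). The difference between the CHK1 effects with and without DUN1 was 1.47 (SE 0.19, 95% interval 1.07 to 1.87) and passed (adjusted p = 0.00157 in limma), as the only gene of 5594 (0.0179%, beside 3.45% at an unadjusted p below 0.05). It kept its sign in all 19 alternative settings and passed in 14 of them, and without that dun1 array it was 1.65 (adjusted p = 0.000228). Both values without it also leave out 1 array of mec1 and 1 of chk1rad53. In cells without RAD53, HUG1 had -0.32 and -0.62 in chk1rad53, against -0.76 and -0.36 in rad53, and the strains overlapped. Their difference of 0.09 and the difference between the CHK1 effects with and without RAD53 of 0.81 did not pass (adjusted p = 0.973 and 0.849 in limma), and no gene passed in the second, with 4.92% at an unadjusted p below 0.05.

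RNR2 and RNR4 did not pass in these backgrounds. RNR2 had 0.82 and 0.96 in chk1dun1, against 0.71 and -0.05 in dun1, a difference of 0.56, while RNR4 had 0.92 and 0.56 in chk1dun1, against 0.59 and 0.42 in dun1, a difference of 0.23. Without RAD53 their differences were 0.10 and 0.13. Further values leave out the dun1 array with the high DUN1 ratio, together with the arrays of mec1 and chk1rad53. RNR2 then stood at 0.53 and RNR4 at -0.06 in chk1dun1 against dun1, and at -0.02 and 0.01 in chk1rad53 against rad53. The signs of RNR4 without DUN1 and of RNR2 without RAD53 thus depended on single arrays. RNR2 without DUN1 and RNR4 without RAD53 kept their signs. SIT1 differed by -0.71 in chk1dun1 against dun1 (-0.59 without those arrays), and the iron regulon's median was -0.24 there and -0.04 without RAD53. The ribosome biogenesis median was -0.02 in chk1dun1 against dun1 and -0.14 in chk1rad53 against rad53.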

How the data were processed

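RNA from MMS-treated and untreated cultures was hybridised to two-colour arrays. The deposited table gave the authors' log ratio, read here as log2 of Cy5 over Cy3, for every probe; limma is named per the submitters' processing notes (version not given in the sources used here), and base and centring are not stated. Dye directions came from the labels. The sign was turned where Cy3 held the MMS sample. Of 6269 probes, 5620 had 1 gene symbol and 649 none, and probes of a gene were averaged to 5594 genes. Opposite-dye arrays of a replicate were averaged to 1 value, so 26 replicate values entered 1 fit over 13 strains.

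The fit used limma 3.58.1 in R 4.3.3 (lmFit, eBayes, 13 residual degrees of freedom), with Benjamini-Hochberg adjustment over all genes and a threshold of 0.05, and was tested on simulated data. The number of arrays limits the precision, and signal over background was not used.

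Named genes were those called, then the 12 highest and 12 lowest with an unadjusted p below 0.05 and non-overlapping replicates, and for the chk1 response the 8 highest and 8 lowest called with 1 sign on all 4 arrays; list members could also be named. Members, lists and tests were chosen with earlier results of these data known. Deviations of same-numbered chk1 and wt replicates correlated at 0.19, and the labels tie no numbers between strains, so replicates were not paired. Alternatives varied the strains fitted, scaling, random blocks (statmod 1.5.0), dye, single arrays, variance model, features and replicates. The other 20 arrays were not used. Some list genes are not reported here.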

Additional observations from a re-analysis of the deposited data

Results flagged for a closer look

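The CHK1 effect on HUG1 is here the difference between a strain without CHK1 and its partner that keeps it. It differed between the backgrounds with and without DUN1 by a test of the difference itself. HUG1 averaged 4.96 in chk1, against 4.07 in wt, and 0.92 in chk1dun1, against 1.49 in dun1. The difference between the 2 effects was 1.47 (adjusted p = 0.00157 in limma over 5594 genes). All 4 chk1 arrays read above all 4 wt arrays, and both chk1dun1 replicates read below both dun1 replicates. The sml1 strain, which keeps CHK1, averaged 4.84 for HUG1, with replicates that overlapped those of chk1 in range. Set against the mean of sml1, tel1 and ste11, HUG1 was 0.57 higher in chk1 and did not pass (adjusted p = 0.204 in limma). The dun1 arrays, with MMS in Cy5 first, read 1.54 and 1.49 in replicate 1 and 1.11 and 1.83 in replicate 2. DUN1 itself read 2.71 on the first of these replicate 2 arrays, and without that array and 2 of mec1 and chk1rad53 the difference was 1.65. No slide held both chk1 and wt, or both chk1dun1 and dun1, so slide and strain cannot be told apart in either effect. With the slide as a random block the difference was 1.38 and did not pass (adjusted p = 0.529 in limma).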

How the results depend on the processing

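The number of genes called between chk1 and wt, 1 in the reported fit, was 0 when only chk1 and wt were fitted, with either random block, with MMS in Cy5 only and with a trended robust variance, and 0 to 1 when a replicate was left out. The gene called with MMS in Cy3 only and without wt replicate 2 was CHK1, at -1.63 and -0.90. HUG1 missed the threshold at 0.90 when only these strains were fitted (adjusted p = 0.176), with the strain replicate as a random block (0.305), with the slide as a random block (0.372) and with a trended robust variance (0.994); at 0.55 with MMS in Cy5 only and 1.24 with MMS in Cy3 only; and at 0.79 to 1.01 when a replicate was left out. With the replicate number of the titles as a fixed block on the replicate values (the replicate block, unlike the random blocks fitted on arrays), the count was 1 gene and HUG1 was 0.90 (adjusted p = 0.024). The number of genes called in the chk1 response, 2764, was 1319 with MMS in Cy5 only, 1684 with MMS in Cy3 only and 1508 to 1920 with 1 replicate.

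Against sml1, tel1 and ste11, 1 gene was called with either random block and with MMS in Cy3 only. HUG1 in chk1rad53 against rad53 turned to -0.000093 when arrays were scaled to one spread, to -0.059 with MMS in Cy5 only and to -0.033 without 3 single arrays, and ranged from -0.12 to 0.29 when a replicate was left out. Settings for the difference between CHK1 effects were chosen after seeing the data; with and without DUN1, the count was 2 when only these strains were fitted, 0 with either random block, either dye alone and a trended robust variance, and 1 to 8 when a replicate was left out (8 without dun1 replicate 1). HUG1 in it was 1.47 with the strain replicate as a random block (adjusted p = 0.065), 1.38 with the slide block (0.529), 0.90 with MMS in Cy5 only, 2.03 with MMS in Cy3 only, 1.47 with a trended robust variance (0.487) and 1.35 to 1.59 when a replicate was left out. For RAD53 the count was 1 without 3 single arrays and 0 to 1 when a replicate was left out. The slope of chk1 on wt was 1.27 with arrays scaled to one spread, 0.889 with MMS in Cy5 only, 0.894 with MMS in Cy3 only, and 0.913 to 1.00 when a replicate was left out.

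For 26 other single genes the alternative settings gave 390 values in all, of which 378 kept sign and side of the threshold. Most of these genes were picked because their replicates did not overlap, so leaving out 1 replicate could not turn their sign. All but CHK1 also lay far from the threshold at the start, so the count does not measure how robust they are. CHK1 turned to 0.20 with MMS in Cy5 only, OSI1 to 0.17 and RNR1 to 0.054 with arrays scaled to one spread, RNR3 to -0.14 with MMS in Cy5 only, and to -0.035 to 0.080 when a replicate was left out (below 0 without chk1 replicate 2 and without wt replicate 2, -0.030), and RFX1 to -0.013 with the slide block, -0.24 with MMS in Cy3 only, -0.13 without chk1 replicate 1 and -0.19 without wt replicate 2. Where a replicate was left out, fewer samples entered the fit, and a lone replicate was assumed to vary like the other strains; for the other settings the cause was not tested.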
